A study of Mus musculus with 15 samples.

Results

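The genes of collagen crosslinking and folding were followed across a mouse series on high-grade neuroendocrine lung carcinoma. They were the 10 rows of the deposited expression matrix named Lox, Loxl1, Loxl2, Loxl3, Loxl4, Plod1, Plod2, Plod3, Fkbp10 or Serpinh1, 1 row each of 55359 rows in all. Sequencing of poly-A RNA covered 5 groups of 3 samples, 15 in all. The cultured line 46LCNEC_cell grew as an adherent monolayer and came from a large cell neuroendocrine carcinoma induced in QKO mice by an adenovirus whose broadly active CMV promoter drives Cre. The cultured line 57SCLC_cell grew as floating aggregates and came from a small cell carcinoma induced in the same mice by an adenovirus whose keratin 5 promoter drives Cre in basal airway cells. Both lines had recombined tumor suppressor genes, Rb1, Rbl1 and Trp53 among them. 46LCNEC_allo and 57SCLC_allo were subcutaneous tumors grown from these lines in immunocompetent QKO hosts, which bear the unrecombined floxed alleles and a null Rbl1. Lung was normal lung of littermates of the hosts, and their age and sex are not given in the sources used here. Each tumor type is represented by a single line, replicates were separate flasks (57SCLC_cell), dishes (46LCNEC_cell), tumors or animals, and p-values measure only the spread between such samples.

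Fibrillar collagen is hydroxylated and folded in the endoplasmic reticulum, secreted, trimmed and then crosslinked outside the cell. The lysyl hydroxylases Plod1, Plod2 and Plod3 modify lysines of the nascent chains, Serpinh1 (the chaperone HSP47) binds the folded triple helix, and Fkbp10 (FKBP65) is a prolyl isomerase that also acts with Plod2 on the lysines of the telopeptides. The lysyl oxidases Lox and Loxl1 to Loxl4 are secreted copper enzymes that oxidize lysines and hydroxylysines of collagen and elastin to the aldehydes from which crosslinks form. Fibroblasts and smooth muscle are the usual sources of these proteins in lung and in tumor stroma.

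Promoter sequence from RefSeq (GRCm38.p6) was at hand for 4 members, Plod1, Plod3, Serpinh1 and Loxl4. Serpinh1 and Plod3 are shown because they are the members with nearly no reads and with the smallest difference from Lung, respectively, in the cultured small cell line. Each run covers the 250 bases before the annotated start, on chr7:99353240-99353489 (minus strand) and chr5:136986769-136987018 (plus strand), with matches to ACGTG on either strand in capitals. Those letters are the core of the element bound by hypoxia-inducible factors.
Serpinh1: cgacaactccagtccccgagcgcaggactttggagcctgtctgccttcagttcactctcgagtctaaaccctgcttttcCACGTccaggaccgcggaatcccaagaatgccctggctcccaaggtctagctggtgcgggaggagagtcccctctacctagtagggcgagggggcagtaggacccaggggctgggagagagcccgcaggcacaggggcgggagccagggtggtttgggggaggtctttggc
Plod3: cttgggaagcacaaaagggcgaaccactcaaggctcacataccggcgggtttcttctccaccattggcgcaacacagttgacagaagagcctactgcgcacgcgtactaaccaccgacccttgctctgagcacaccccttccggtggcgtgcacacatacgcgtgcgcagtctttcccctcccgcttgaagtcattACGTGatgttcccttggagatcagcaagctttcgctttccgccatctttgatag
The match lies 171 bases before the start in Serpinh1 and 54 bases before it in Plod3, Plod1 and Loxl4 hold none, and 16.6% of 32851 promoters of this length hold at least 1. The GC box GGGCGG was found 1 time in Serpinh1, 2 times in Plod1 and 3 times in Loxl4 (32.7% of all promoters hold it), and CCAAT was found only in Plod3 (33.8%). The paired heat shock letters GAANNTTC, the core bound by heat shock factor, which is known to drive Serpinh1, were in none of the 4 windows (6.69% of all). Motifs may overlap each other and a match is only a description of the letters. CpG dinucleotides numbered 11 in Serpinh1, 17 in Plod3, 16 in Plod1 and 27 in Loxl4, against a median of 6 over all promoters.

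The values are counts divided by size factors, and the reads behind them ranged from 9480244 to 44876572 per sample. The 6 neuroendocrine markers summed to between 29088 and 35738 normalized counts in the 57SCLC groups but to between 23.2 and 60.8 in the 46LCNEC groups, where Lung stood at 172 to 187, so these 6 transcripts did not mark the large cell line as neuroendocrine. Marker proteins, which the study stained, were not analysed here. The 6 alveolar markers fell in all 4 tumor groups against Lung. Flask C of 57SCLC_cell stood apart from flasks A and B in the 12 hypoxia response genes, whose sum was 27198 there against 10164 and 10323. The strand setting of the counting is not given in the sources used here, and 8 members (all but Plod1 and Serpinh1) share exonic bases with a gene on the opposite strand, among them Htra2 at Loxl3, R3hcc1 at Loxl2, Znhit1 at Plod3 and P3h4 at Fkbp10, so reads in the shared bases cannot be assigned with certainty.

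Lox, the founding lysyl oxidase (chromosome 18, 52649136 to 52663110, GRCm39), spanned the widest range of the members. Its normalized counts were 115447, 122588 and 125716 in 46LCNEC_cell, and 4.36, 9.65 and 1.56 in 57SCLC_cell, from 8, 16 and 3 reads. The tumors held intermediate values, with 21249, 17330 and 12872 in 46LCNEC_allo and 3756, 2646 and 4063 in 57SCLC_allo. Lung had 962, 982 and 1594. No group overlapped any other, and the order was 46LCNEC_cell, 46LCNEC_allo, 57SCLC_allo, Lung and 57SCLC_cell. The pooled reads put 46LCNEC_cell 24348 times above 57SCLC_cell, with a 95% counting interval of 16735 to 36947. In 46LCNEC_cell Lox alone took 0.452% of all counts and ranked 23rd of 29668 genes by level per kb. Lox fell in the 46LCNEC tumors against their cells (log2 fold change -2.85, SE 0.20, adjusted p = 5.65e-05) and rose in the 57SCLC tumors against theirs (9.35, SE 0.46, adjusted p = 1.91e-06).

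**Figure D1:**
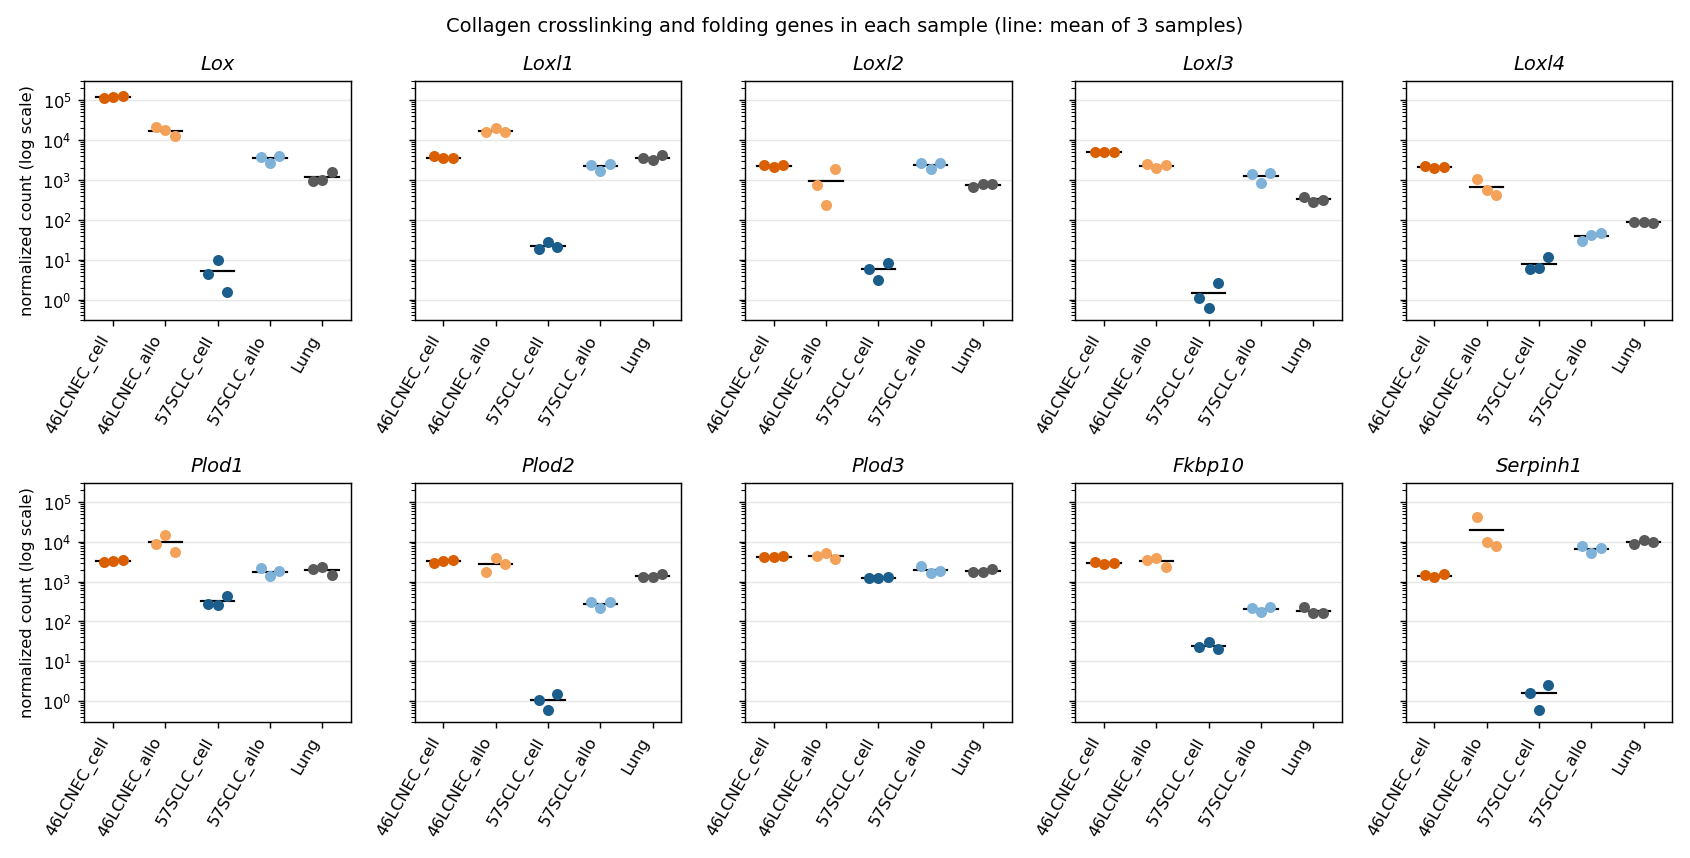
Normalized counts (log axis) of the 10 members in every sample, with the mean of 3 samples as a line. 57SCLC_cell is lowest for every member, and the distance to the other groups is widest for Lox, Serpinh1 and Plod2 and narrowest for Plod3.

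Loxl1, the family member tied to elastic fibers (chromosome 9, 58195014 to 58220495), peaked in the tumors of the large cell line. It had 15460, 19473 and 16107 normalized counts in 46LCNEC_allo, 3933, 3465 and 3470 in 46LCNEC_cell, and 3595, 3074 and 4160 in Lung. The cells and the lung overlapped (log2 difference 0.01, 95% interval -0.24 to 0.27). 57SCLC_allo had 2324, 1656 and 2512 and the flasks of 57SCLC_cell held 33, 45 and 40 reads, a mean of 22.0 ± 4.68 normalized counts (SD, n = 3). Loxl1 rose 4.68-fold from 46LCNEC cells to tumors (log2 2.23, SE 0.12, adjusted p = 1.94e-05), opposite in sign to Lox in the same samples.

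Loxl2 (chromosome 14, 69846209 to 69933283), which also acts on collagen IV of basement membranes, was the member with the widest spread among the tumors of the large cell line. Tumors 312, 319 and 321 had 738, 236 and 1864 normalized counts, a 7.91-fold range, while the dishes of 46LCNEC_cell had 2331, 2056 and 2298. In 57SCLC_allo it stood at 2609, 1849 and 2698, and in Lung at 664, 809 and 801. The flasks of 57SCLC_cell gave 11, 5 and 16 reads, a mean of 5.78 ± 2.67 normalized counts (SD, n = 3). Loxl2 was the only member with a higher mean in 57SCLC_allo than in 46LCNEC_allo, but the groups overlapped and the difference did not pass (log2 1.77, SE 0.68, adjusted p = 0.0640). Without tumor 321 it passed at 2.49, and without tumor 319 the difference was 1.00.

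Loxl3 (chromosome 6, 83011152 to 83029543) followed the order of Lox at lower levels. Its counts were 5138, 5099 and 4972 in 46LCNEC_cell, 2507, 2005 and 2343 in 46LCNEC_allo, and 1403, 827 and 1522 in 57SCLC_allo. Lung had 368, 279 and 320, below every tumor. The 57SCLC flasks held 2, 1 and 5 reads of it (1.09, 0.603 and 2.61 normalized counts). Against Lung, Loxl3 was higher by 7.08-fold in 46LCNEC_allo (SE 0.15 on the log2 scale, adjusted p = 1.94e-05) and by 3.76-fold in 57SCLC_allo (SE 0.23, adjusted p = 0.000144).

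Loxl4 (chromosome 19, 42580711 to 42601252) was highest in the large cell line and next in its tumors. It had 2256, 1991 and 2133 normalized counts in 46LCNEC_cell and 1028, 542 and 421 in 46LCNEC_allo, against 86.7, 88.8 and 80.8 in Lung. The 57SCLC tumors reached 28.7, 41.1 and 46.5, below every lung, and the flasks held 11, 10 and 22 reads, a mean of 7.83 ± 3.15 normalized counts (SD, n = 3). Its difference between 57SCLC_allo and Lung passed (log2 -1.15, SE 0.26, adjusted p = 0.00442) but rested on few reads, 82 in the tumors against 274 in Lung, and the call was lost at -0.94 when samples were scaled by total reads, and when tumor 275 or any single lung was left out.

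Plod1 (chromosome 4, 147991574 to 148021356), which hydroxylates lysines in the triple helix, was high in the 46LCNEC tumors, with 8779, 14783 and 5649 normalized counts. The 46LCNEC dishes had 3131, 3305 and 3436, Lung 2120, 2372 and 1460, and the 57SCLC tumors 2150, 1362 and 1791. The last 2 groups overlapped. The 57SCLC flasks kept 278, 262 and 437 counts, from 434 to 838 reads, and the highest was flask C, which also had the highest hypoxia response sum; the part of the latter was not tested. Plod1 rose in the tumors of both lines against their cells, by 2.74-fold in 46LCNEC (log2 1.45, SE 0.31, adjusted p = 0.00659) and 5.47-fold in 57SCLC (log2 2.45, SE 0.23, adjusted p = 6.29e-05), and the difference between these changes did not pass (log2 1.00, SE 0.43, adjusted p = 0.0860). The first call was lost when tumor 312 or any single dish was left out, with log2 values from 1.42 to 1.49.

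Plod2 (chromosome 9, 92424119 to 92490494), which hydroxylates the telopeptide lysines, was present in the large cell line and nearly absent from the cultured small cell line. It had 2990, 3322 and 3492 normalized counts in 46LCNEC_cell and 1687, 3860 and 2744 in 46LCNEC_allo, and these groups overlapped. The 57SCLC flasks held 2, 1 and 3 reads. The 57SCLC tumors had 302, 214 and 315, all below the lungs at 1286, 1290 and 1564. Plod2 was thus the only member that fell in 57SCLC_allo against Lung under every alternative run (log2 -2.33, SE 0.17, adjusted p = 7.06e-06). In the same tumors Plod1 and Plod3 gave log2 differences of -0.16 and 0.10, with 95% intervals of -0.67 to 0.35 and -0.24 to 0.43.

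Plod3 (chromosome 5, 137015827 to 137025502), which carries glycosyltransferase activity besides its hydroxylase activity, was the most even member. It had 4166, 4071 and 4398 normalized counts in 46LCNEC_cell, 4429, 5182 and 3614 in 46LCNEC_allo, and 2444, 1658 and 1872 in 57SCLC_allo. Lung had 1729, 1783 and 2006, overlapping the 57SCLC tumors. The 57SCLC flasks had 1227, 1196 and 1301, from at least 1983 reads each. Plod3 did not pass in 57SCLC_cell against Lung (log2 -0.57, SE 0.08, 95% interval -0.76 to -0.37), where the fold missed the minimum of 2 although adjusted p was 0.000394.

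Fkbp10 (chromosome 11, 100305808 to 100315669) was high in the large cell line in culture and in its tumors alike. The dishes had 3053, 2744 and 2956 normalized counts and the tumors 3497, 3894 and 2315, with a log2 difference of 0.12 (95% interval -0.33 to 0.57). Lung had 227, 159 and 159 and the 57SCLC tumors 220, 176 and 228, also overlapping. The 57SCLC flasks had 22.4, 30.2 and 20.3. Against Lung, Fkbp10 was 17.6-fold higher in 46LCNEC_allo (log2 4.13, SE 0.24, adjusted p = 2.88e-05) and 16.2-fold higher in 46LCNEC_cell (log2 4.02, SE 0.14, adjusted p = 1.23e-08).

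Serpinh1 (chromosome 7, 98994220 to 99005076) was lower in both lines in culture than in their tumors and in Lung, and nearly absent only from 57SCLC_cell. The flasks of 57SCLC_cell held 3, 1 and 5 reads, and the dishes of 46LCNEC_cell had 1425, 1287 and 1510 normalized counts. Lung had 8494, 10739 and 10040 and 57SCLC_allo 7756, 5122 and 7133. Tumors 312, 319 and 321 of 46LCNEC_allo had 42275, 9762 and 7787. Lung exceeded both cultures in every sample, by 6.91-fold over 46LCNEC_cell (log2 -2.79, SE 0.10, adjusted p = 1.45e-08), the only member that fell in that comparison. Pooled reads put 57SCLC_allo 3940 times above its cells, with a 95% counting interval of 2075 to 8619. In 46LCNEC the tumors rose over the cells (log2 3.39, SE 0.58, adjusted p = 0.00244), with 2.63 and the call kept without tumor 312, and the call lost when any single dish was left out (log2 3.33 to 3.44).

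In culture, the small cell line had far less RNA of most members than the large cell line. All 10 members fell in 57SCLC_cell against 46LCNEC_cell, where 22.2% of 16920 genes tested were called lower and 23.9% higher. A call needs an adjusted p of at most 0.01 (limma, Benjamini-Hochberg over all genes tested) and a change of at least 2-fold. The lysyl oxidases Lox and Loxl3 and the hydroxylase Plod2 fell most (log2 -14.49, -11.11 and -10.64), Serpinh1, Loxl2, Loxl4, Loxl1 and Fkbp10 followed (-9.15 to -6.87), and Plod1 and Plod3 fell least (-3.37 and -1.76). The median over the members was -8.20, beside 0.00 over all genes tested. The groups did not overlap for any of the 10 members, nor for 80.8% of all genes tested, so separation of the samples was usual here. Without flask C all 10 were still called, with Plod1 at -3.60. For the 6 members with at most 43 reads over all flasks, the fitted values depend on the pseudocount: with 0.1 and 5 in place of 1, Plod2 moved to -11.51 and -9.07, Loxl3 to -11.91 and -9.64, Serpinh1 to -9.88 and -7.75, and Lox to -14.83 and -13.62.

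**Figure D2:**
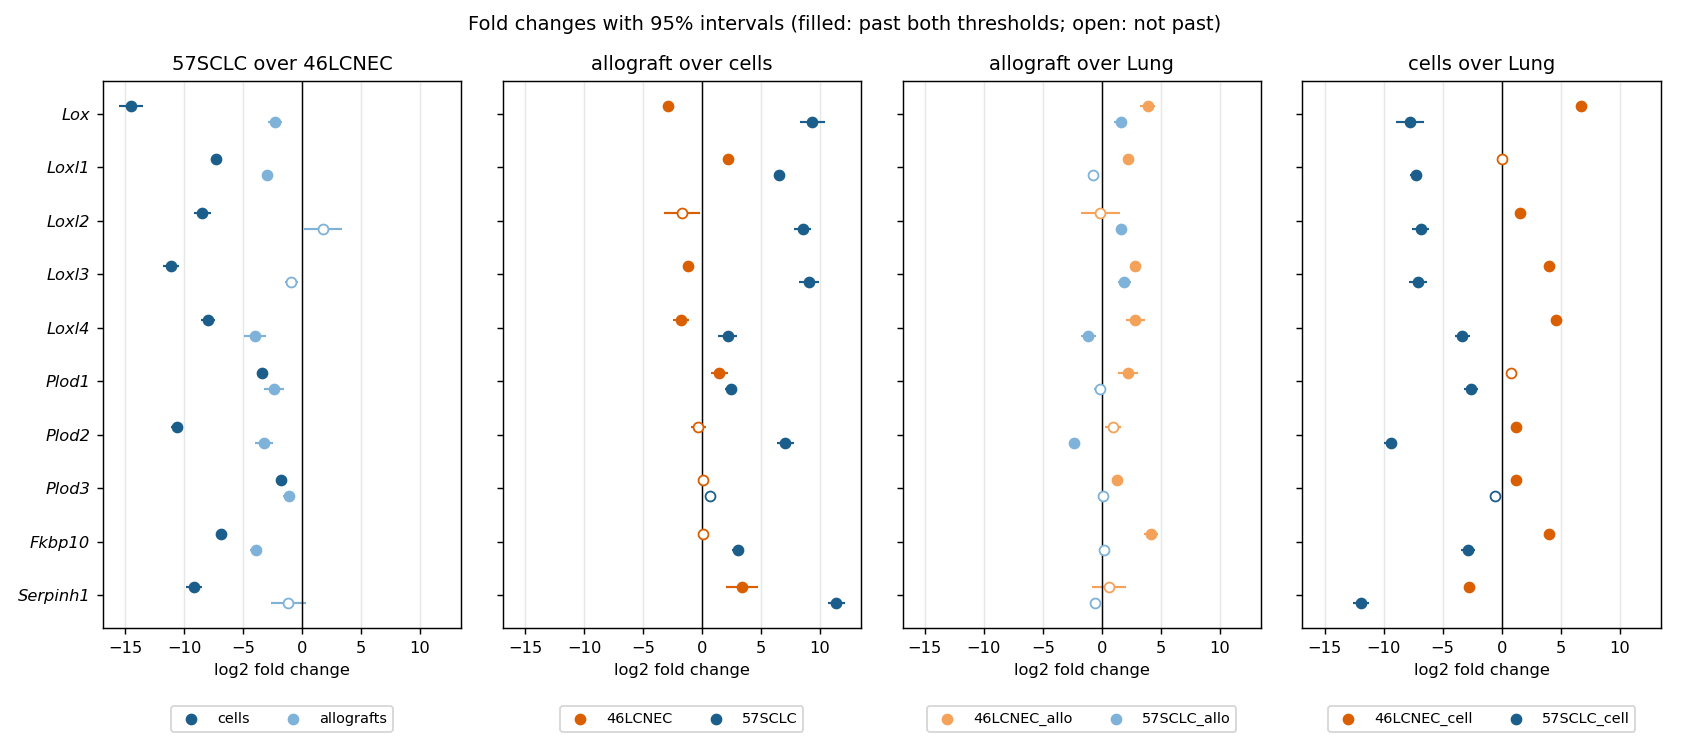
Log2 fold changes of the members with 95% intervals from limma. The panels compare the lines, tumors with cells, tumors with Lung and cells with Lung, and filled points passed both thresholds. In the second panel the 57SCLC points lie to the right of the 46LCNEC points for every member.

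Transcripts of proteins that work with the members followed in part. Of 16 partners in collagen hydroxylation and folding, 13 fell and 1 rose in 57SCLC_cell against 46LCNEC_cell (median log2 -2.35), from P4ha3, a prolyl 4-hydroxylase subunit, at -6.82 and Creb3l1, a transcription factor of secretory cells, at -6.31, to Mia3 at -0.47, which did not pass, and Colgalt2, a collagen galactosyltransferase paralog, at 1.62. Of 12 tested procollagen processing genes and lysyl oxidase partners, 12 fell (median -8.17), led by Sparc and Fn1 at -14.02 and -13.89, which code for matrix proteins that bind collagen. Of 11 tested fibrillar collagen and elastin substrates, 9 fell and none rose (median -11.27), with Col1a2 at -13.98 and Col1a1 at -12.51, while Col24a1 (-0.60) and Col11a2 (0.34) did not pass. The lists hold other genes than the 10 members. Sparc, Fn1, Col1a2 and Col1a1 stayed under 10 normalized counts in every flask of 57SCLC_cell, as did Lox, Loxl2, Loxl3, Plod2 and Serpinh1. Genes this low in 57SCLC_cell were tested only where the other group reached 10 normalized counts in all 3 samples. In every pairwise comparison 57SCLC_cell could therefore only come out lower for them, and the direction of these calls was fixed in advance.

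From culture to the host, nearly all members rose in the small cell line, whereas in the large cell line some rose and some fell. In 57SCLC_allo against 57SCLC_cell, 9 of 10 members rose and none fell (14.4% of 17078 genes were called higher and 2.29% lower), with a median log2 fold change of 6.81 beside 0.00 over all genes. The groups were apart for all 10 members and for 53.6% of all genes. Serpinh1 rose most (log2 11.37, SE 0.31, adjusted p = 2.53e-07), followed by Lox, Loxl3 and Loxl2 (9.35, 9.04 and 8.52), and Plod3 did not pass (0.66, SE 0.14, adjusted p = 0.00607). In 46LCNEC_allo against 46LCNEC_cell, Loxl1, Plod1 and Serpinh1 rose and Lox, Loxl3 and Loxl4 fell (14.4% of 16375 genes were called higher and 8.45% lower), the median was -0.13 beside -0.00, and the groups were apart for 7 members and for 63.9% of all genes. The 3 that fell had log2 fold changes of -2.85, -1.16 and -1.78. Loxl2, Plod2, Plod3 and Fkbp10 did not pass there, with -1.69, -0.32, 0.05 and 0.12. Leaving out any single dish of 46LCNEC_cell left 1 member called higher, Loxl1, and the lower call of Loxl4 was lost as well (log2 -1.83 to -1.74).

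The 2 changes were then compared directly over 12 samples. Every member had a positive difference. The change from cells to tumors was higher in 57SCLC than in 46LCNEC for 8 members and lower for none, where 10.8% of 18440 genes were called in the first direction and 6.78% in the second. The largest differences were those of Lox (log2 12.20, SE 0.55, adjusted p = 2.83e-08), Loxl2 (10.21, SE 0.80, adjusted p = 1.90e-06) and Loxl3 (10.20, SE 0.40, adjusted p = 8.83e-09). Plod1 (1.00) and Plod3 (0.61, SE 0.21, adjusted p = 0.0380) did not pass. Lox, Loxl2, Loxl3, Plod2 and Serpinh1 were nearly absent from the 57SCLC flasks, so their 57SCLC change could not have been a clear fall.

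Many markers of host stroma were higher in the tumors than in the cells of both lines. All 8 fibroblast markers rose in 57SCLC_allo against its cells, their sum going from between 111 and 144 normalized counts to between 4945 and 8431, and 7 of 8 rose in 46LCNEC_allo, from between 7698 and 8309 to between 40248 and 52115. In 57SCLC_cell the fibroblast markers Lum and Mfap5 were at 0 in all flasks and Dcn had at most 1 read. In 46LCNEC_cell, Pdgfrb and Pdgfra made up most of the sum (means of 6346 and 1190), while Dcn, Mfap5, Dpt and Lum had means of 11.1, 2.59, 0.880 and 0.736. Of the 6 smooth muscle and pericyte markers 5 rose in the 57SCLC tumors and 3 in the 46LCNEC tumors, and of 6 endothelial markers 5 rose in each. All 5 tested macrophage and leukocyte markers rose in both, with sums between 8942 and 14836 in 57SCLC_allo and between 22014 and 48518 in 46LCNEC_allo. None of the 6 neuroendocrine markers passed both thresholds in 57SCLC_allo against its cells, where their median log2 difference was -0.20. In bulk RNA fewer cells of a type and less RNA per cell cannot be told apart, and the part of these cells in the members' changes was not tested.

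**Figure D3:**
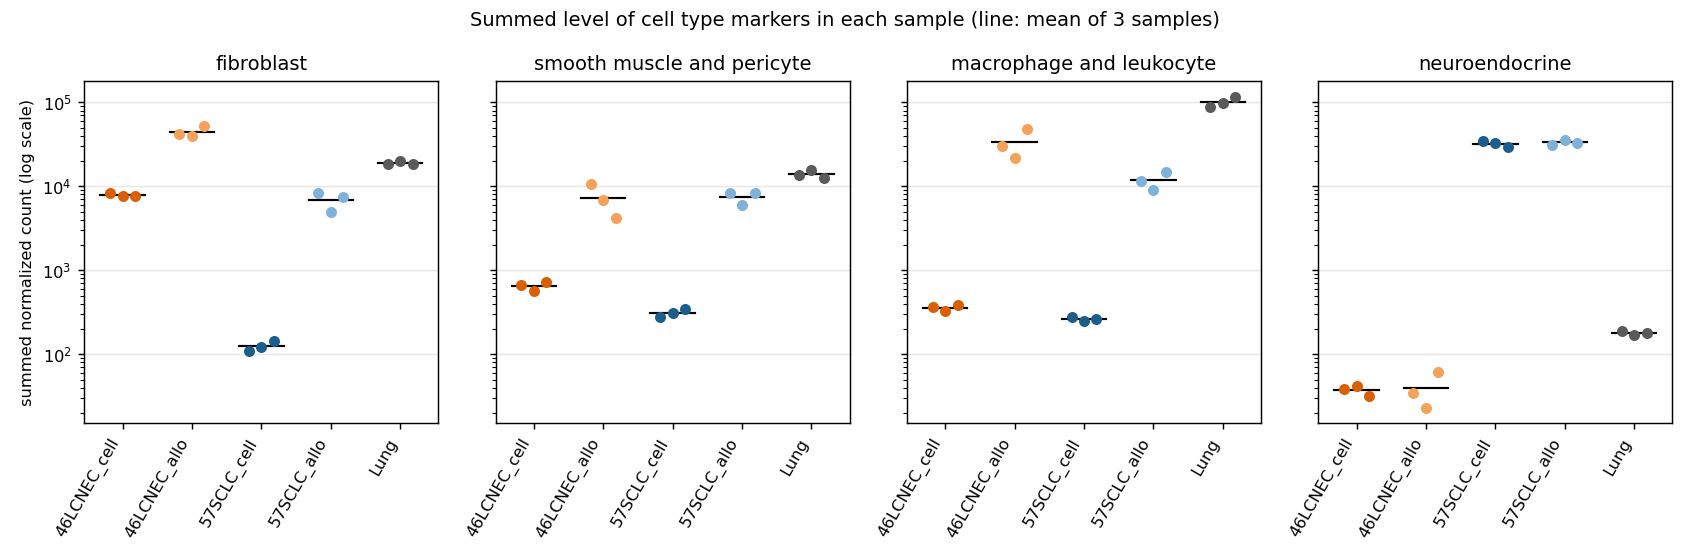
Summed normalized counts (log axis) of 4 marker lists in every sample, with means as lines. The fibroblast, muscle and macrophage sums are lowest in 57SCLC_cell, whereas the neuroendocrine sum is between 29088 and 35738 in both 57SCLC groups and at most 187 elsewhere.

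Many collagen chains were also higher in the tumors than in the cells. In 57SCLC_allo against its cells, 9 of 11 fibrillar collagen and elastin substrates rose (median log2 5.58), with Col1a2 at 12.55 and Col1a1 at 12.26. Of 11 processing genes 9 rose (median 4.17), with Sparc at 11.69 and Fn1 at 11.14, whereas Bmp1, the procollagen C-proteinase, and its relative Tll1 did not pass (0.82 and -1.0). For Sparc, Fn1, Col1a2 and Col1a1, nearly absent from the flasks, a rise was the only direction that could be tested. Of the 16 folding partners 8 rose and 1, P3h2 (-2.69), fell. In 46LCNEC_allo against its cells, 7 of 12 substrates rose and 2 fell, from Eln at 9.75 and Col3a1 at 4.54 to Col11a1 at -4.28 and Col2a1 at -4.38. Only 1 folding partner rose there (P3h3, 3.0) and 1 fell (P3h2, -1.98), and of 12 processing genes 4 rose, led by Postn (3.76), and 1 fell (Tll1, -2.40).

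Against Lung, the tumors of the large cell line had more RNA of most members. In 46LCNEC_allo 7 of 10 members rose and none fell (13.4% of 18033 genes were called higher and 22.1% lower), with a median log2 fold change of 2.23 beside -0.14 over all genes. Groups that did not overlap were seen for 8 members and for 71.2% of all genes. Fkbp10 and Lox rose most (4.13 and 3.87), followed by Loxl4, Loxl3, Loxl1 and Plod1 (2.84, 2.82, 2.24 and 2.21) and Plod3 (1.25). Loxl2, Plod2 and Serpinh1 did not pass (-0.14, 0.93 and 0.60), and Loxl2, the only member with a negative value, had a 95% interval of -1.78 to 1.51. Serpinh1 turned to -0.16 without tumor 312, and Loxl2 to 0.63 without tumor 319 and, with all tumors kept, to 0.38 with edgeR and 0.35 with DESeq2. Of 16 folding partners 10 rose and 2 fell, of 12 processing genes 9 rose and 2 fell, and of 12 substrates 9 rose and none fell, with Col11a1 at 6.72.

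In 57SCLC_allo against Lung, 3 members rose and 2 fell (18.9% of 18517 genes were called higher and 26.9% lower), with a median of -0.03 beside -0.09 over all genes. The groups did not overlap for 7 members, near the 78.6% of all genes. Loxl3, Loxl2 and Lox rose (1.91, 1.64 and 1.58) and Plod2 and Loxl4 fell (-2.33 and -1.15). Plod1, Plod3, Fkbp10 and the chaperone Serpinh1 did not pass, with values of -0.16, 0.10, 0.21 and -0.56, nor did Loxl1 (-0.75, SE 0.17, adjusted p = 0.00497), whose fold was under 2. Of 16 folding partners 1 rose (P4ha3, 2.70) and 3 fell. Of 12 processing genes none rose (the highest value was that of Fn1, 0.83, adjusted p = 0.00133, with a fold under 2) and 6 fell, with Pcolce2 at -6.97 and Fbln5 at -4.80. Of 11 substrates 9 rose and 2 fell, Col11a1 at 4.33 and Col5a3 at 4.27 standing highest and Eln (-3.96) and Col27a1 (-1.89) lowest.

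Of the cultured lines, the large cell line had more of most members than Lung and the small cell line less. In 46LCNEC_cell 7 members rose and 1 fell (20.6% of 18142 genes were called higher and 35.0% lower), with a median of 1.40 beside -0.23 and no overlap for 9 members, near the 86.0% of all genes. Lox, Loxl4, Fkbp10 and Loxl3 rose most (6.72, 4.62, 4.02 and 3.98). In 57SCLC_cell none rose and 9 fell (21.1% of 18467 genes were called higher and 32.7% lower), with a median of -7.01 beside -0.12 and no overlap for any of 10 members or for 83.4% of all genes. The 4 comparisons with Lung share the same 3 lungs, and their values are given side by side for that reason.

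Between the tumors, 7 members were lower in 57SCLC_allo than in 46LCNEC_allo and none was called higher (14.2% of 17502 genes were called lower and 16.1% higher), with a median of -2.33 beside 0.01 and no overlap for 9 members or for 65.9% of all genes. Loxl4 and Fkbp10 fell most (log2 -3.99, SE 0.38, adjusted p = 0.000198 and -3.93, SE 0.22, adjusted p = 2.50e-05), then Plod2, Loxl1, Plod1, Lox and Plod3 (-3.25, -2.99, -2.38, -2.29 and -1.15). Loxl3 (-0.91, SE 0.24, adjusted p = 0.0163), Serpinh1 (-1.17, SE 0.61, adjusted p = 0.149) and Loxl2 did not pass, and Loxl2, the only member with a positive value, had a 95% interval of 0.14 to 3.41 before adjustment. With tumor 312 left out, Serpinh1 stood at -0.41. Fibroblast markers differed too, 5 of 8 being lower in 57SCLC_allo and none higher. Of the smooth muscle and pericyte markers 2 of 6 were higher there and none was called lower (median log2 1.16). By mean, Cspg4 and Acta2 were lower there (900 against 3106 and 2184 against 2563 normalized counts) and the others higher. The sums of the list overlapped, at 7524 ± 1342 in 57SCLC_allo and 7195 ± 3159 in 46LCNEC_allo (SD, n = 3). The part of these markers in the members' differences was not tested. Partners were lower too: 10 of 16 folding partners, 10 of 12 processing genes and 9 of 12 substrates fell and none of these rose. The largest value among the genes that did not rise was 0.79, shared by Colgalt2 and Col11a2 (adjusted p = 0.104 and 0.0316).

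Levels were compared between members per kilobase of merged exons. With the longest transcript as the length, 37 of 50 ranks of members within groups stayed the same, the leading member of each group among them. In Lung, Plod1 moved from rank 6 to rank 4 and Lox from rank 4 to rank 6. Lox led in 46LCNEC_cell with 24594 ± 1068 normalized counts per kb (SD, n = 3), ahead of Loxl3 at 1084 ± 18.6. Loxl1 and Lox led in 46LCNEC_allo (4301 ± 545 and 3479 ± 850), where Serpinh1 had 2843 ± 2761, above both in tumor 312 and below both in the other tumors, and Lox was above Loxl1 only in tumor 312. Serpinh1 led in Lung (1391 ± 164) and in 57SCLC_allo (951 ± 196), before Loxl1 in the first (912 ± 137) and Lox in the second (708 ± 151), and Serpinh1 was the higher in every lung and every 57SCLC tumor (in the tumors 1106, 730.1 and 1017 per kb against 762, 537 and 824 for Lox). In 57SCLC_cell Plod3 led with 200 ± 8.65, then Plod1 with 34.1 ± 10.1, and no other member reached 10 per kb. Summed over the 10 members, the level per kb was 29873 ± 1023 in 46LCNEC_cell, 14428 ± 3500 in 46LCNEC_allo, 3531 ± 253 in Lung, 3517 ± 713 in 57SCLC_allo and 250 ± 17.9 in 57SCLC_cell. Thus 57SCLC_allo and Lung lay within their spread in the sum while differing in its parts.

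The make-up of the lysyl oxidases differed between groups. Lox supplied 89.9 ± 0.771% (SD, n = 3) of the family's level per kb in the 46LCNEC cells, 40.3 ± 6.68% in their tumors, 36.1 ± 0.296% in the 57SCLC tumors and 17.2 ± 2.73% in Lung. Loxl1 supplied 66.5 ± 2.17% in Lung, 50.5 ± 6.39% in 46LCNEC_allo, 28.0 ± 0.403% in 57SCLC_allo and 3.36 ± 0.368% in 46LCNEC_cell. The 57SCLC tumors had the largest shares of Loxl2 and Loxl3 among the groups with substantial levels (22.1 ± 0.652% and 13.5 ± 1.27%). In 57SCLC_cell the shares rest on a summed level of 9.28 per kb and are uncertain.

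**Figure D4:**
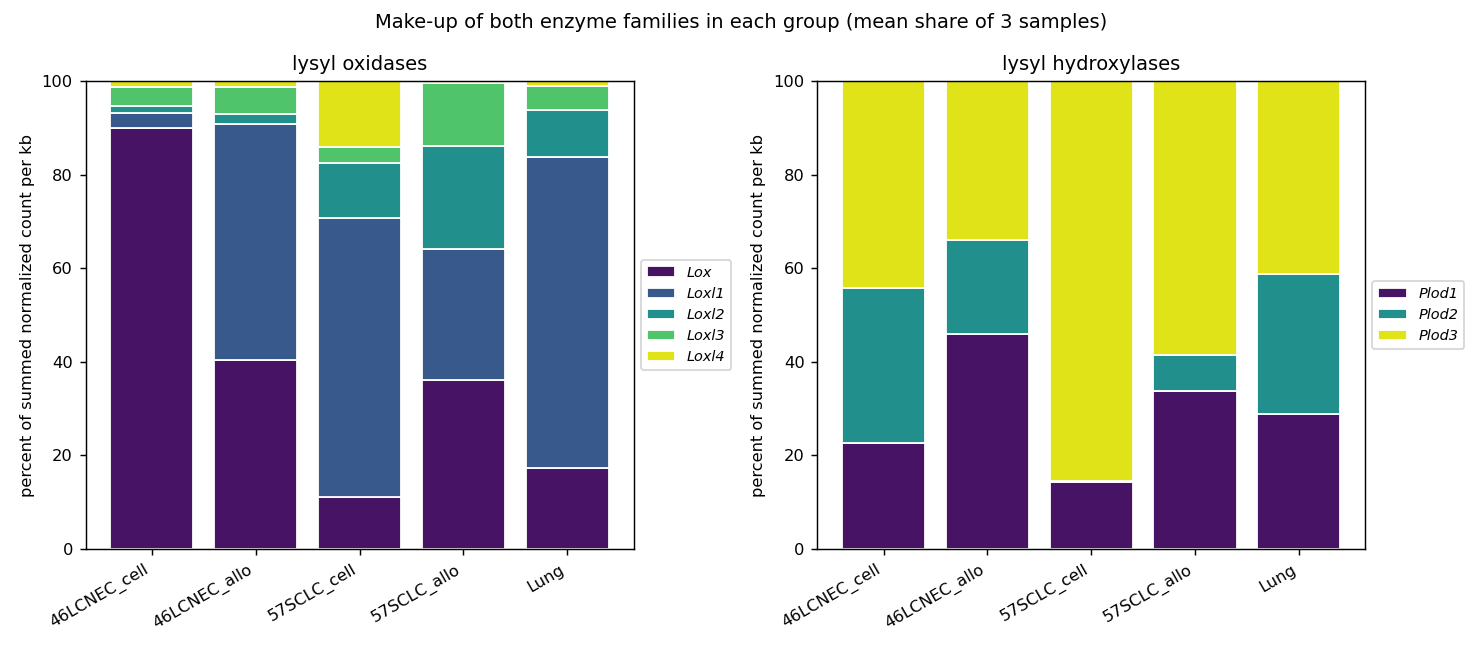
Mean share of each gene in the summed normalized count per kb of its family, by group (3 samples each). Lox fills 89.9% of the lysyl oxidase bar in 46LCNEC_cell and Loxl1 66.5% in Lung, and Plod2 is nearly absent from the lysyl hydroxylase bar in 57SCLC_cell.

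Among the lysyl hydroxylases Plod2 supplied 33.1 ± 1.2% of the level per kb in 46LCNEC_cell, 29.8 ± 3.48% in Lung, 20.2 ± 6.40% in 46LCNEC_allo, 7.88 ± 1.09% in 57SCLC_allo and 0.0708 ± 0.0265% in 57SCLC_cell. Plod3 supplied 85.5 ± 3.07% in 57SCLC_cell and 58.4 ± 2.20% in 57SCLC_allo, and between 34% and 44.3% on average in the other groups. Plod1 was highest in 46LCNEC_allo at 45.8 ± 7.83%. Its merged exons hold 9533 bases and its longest transcript 5936, so the shares depend on the length used. The summed level of the 3 hydroxylases was 2160 ± 729 in 46LCNEC_allo, 1531 ± 74.4 in 46LCNEC_cell, 719 ± 17.8 in Lung, 549 ± 112 in 57SCLC_allo and 234 ± 18.8 in 57SCLC_cell.

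Tumors of the same line differed from each other. The ratio of the highest to the lowest tumor ran from 1.25 (Loxl3) to 7.91 (Loxl2) in 46LCNEC_allo and from 1.30 (Fkbp10) to 1.84 (Loxl3) in 57SCLC_allo, and it was the larger in 46LCNEC_allo for all members but Loxl1, Loxl3 and Plod3. In 57SCLC_allo tumor 316 was lowest for 9 of 10 members, Loxl4 being the exception, and its fibroblast sum was also lowest (4945 against 8431 and 7521). In 46LCNEC_allo tumor 321 was lowest for 6 members while its fibroblast sum was highest (52115 against 42315 and 40248). Tumor 319 had the highest Plod1 and Plod2 (14783 and 3860), but not the highest Lox (17330 against 21249 in tumor 312), and the highest hypoxia response sum, 96443 against 40520 in tumor 312 and 30735 in tumor 321. The part of these values in the spread was not tested, and 3 tumors a group allow only a description.

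**Figure D5:**
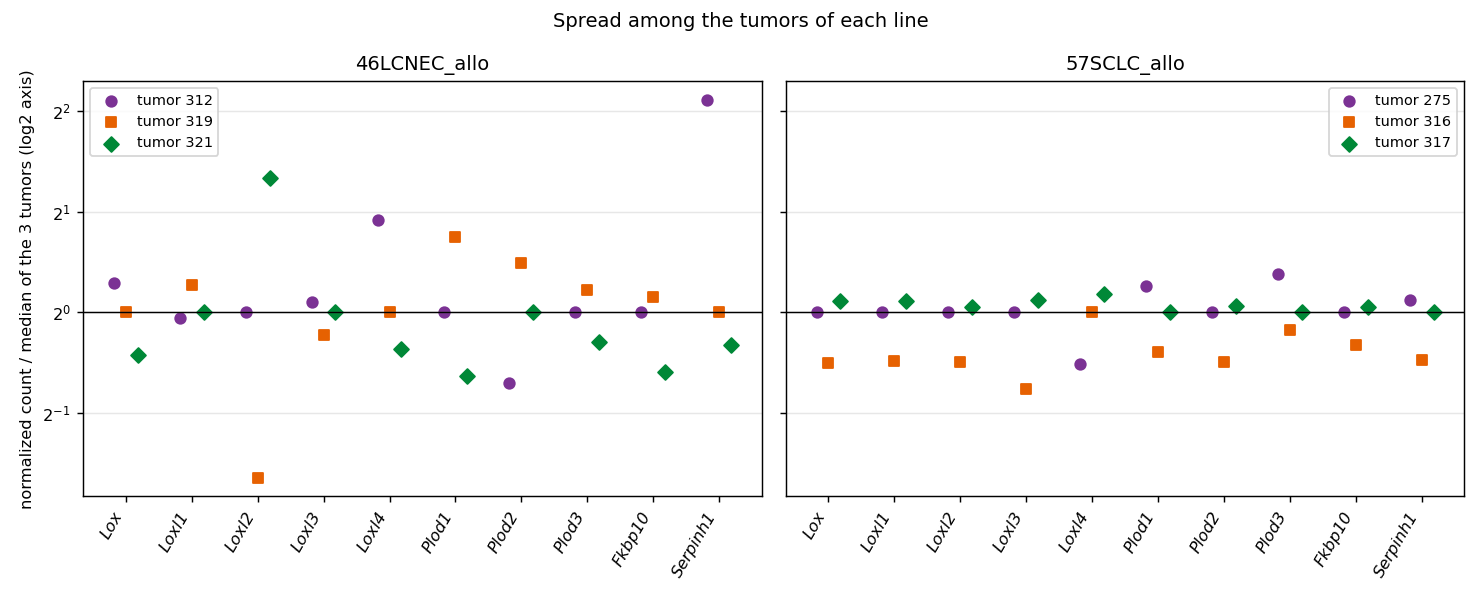
Each tumor's normalized count divided by the median of its group (log2 axis), for both lines. Serpinh1 of tumor 312 and Loxl2 of tumors 319 and 321 lie farthest from 1 in 46LCNEC_allo, and tumor 316 lies below 1 for 9 members in 57SCLC_allo.

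Lox, Plod1 and Plod2 are among the genes known to respond to low oxygen, so 12 other response genes were read beside them. Of 11 tested, 9 rose in 57SCLC_allo against its cells (median log2 1.95, from Kdm3a at 1.00, not past the thresholds, to Bnip3 at 4.12). In 46LCNEC_allo against its cells 3 rose (Car9, Ndrg1 and Egln3, at 4.55, 3.46 and 2.95), and Ldha had the lowest value (-0.88, adjusted p = 0.00260, fold under 2). None fell in either comparison. Against Lung 9 rose and 1 fell in 57SCLC_allo and 6 rose and 1 fell in 46LCNEC_allo, and the gene that fell was Vegfa (-2.0 and -1.87). In 57SCLC_cell against 46LCNEC_cell 1 rose and 5 fell. The remaining listed gene, Adm, is at 0 in every sample and could not be tested.

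Over the 15 samples, the genes whose log2 values followed each member most closely were, by Pearson's r, Adam12 (0.995) and Ifi202b (0.984) for Lox, Gm11747 (0.997) and Col6a3 (0.994) for Loxl1, Srpx2 (0.972) and Hs6st2 (0.970) for Loxl2, and Col15a1 (0.987) and Ifi202b (0.986) for Loxl3. For Loxl4 they were Pgd (0.984) and Ext1 (0.983), for Plod1 Pdgfrl (0.984) and Ikbip (0.978), for Plod2 S100a10 (0.997) and S100a11 (0.995), and for Plod3 Stac2 (0.987) and P4hb (0.984). Fkbp10 was closest to Dctd (0.994) and Stac2 (0.991), and Serpinh1 to Acta2 (0.993) and Bgn (0.992). Between members r ran from 0.582 (Loxl4 and Serpinh1) to 0.977 (Plod3 and Fkbp10). The 15 points fall into 5 groups of 3 samples and share one scaling, so the values are a description and carry no p.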

How the data were processed

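Poly-A RNA of 15 samples in 5 groups of 3 was sequenced. The deposited values are signal, gene counts that the authors divided by DESeq2 size factors after alignment to GRCm39 with Rbowtie2 and counting with featureCounts on GENCODE release 27. Whole reads were recovered for 100% of values in every sample (tolerance 0.1 reads), and they gave 9480244 to 44876572 reads per sample. Counting intervals (95%, exact) cover counting error only, since reads without molecular identifiers are not independent molecules. The strand setting is not given in the sources used here.

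Log2(value + 1) was fitted by limma 3.58.1 in R 4.3.3, separately for each of 8 pairs of groups and in 1 interaction model over 12 samples, keeping genes that reached 10 normalized counts in 3 or more samples. A call needed an adjusted p (Benjamini-Hochberg over all genes tested) of at most 0.01 and at least a 2-fold change, and a fold change on this scale understates that of low genes. Levels per kb used merged exons of GENCODE release 39 on GRCm39. Python 3.11.15 with numpy 2.4.6, pandas 2.3.3, scipy 1.17.1 and matplotlib 3.10.9 made the tables and figures. The fit was tested on simulated data.

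Alternatives were edgeR 4.0.16 (TMM) and DESeq2 1.42.0 on the recovered reads, pseudocounts of 0.1 and 5, no filter, scaling by total reads, length by the longest transcript, the replicate letter as a block, and each sample left out, keeping the genes tested with all samples. The cultures share the letters A, B and C, but the deviations of same-letter samples correlated at 0.09, -0.08 and -0.01, so letters were not taken to pair them. The members and lists were chosen with earlier results of these data known. Besides the 10 members, at most the 2 highest and 2 lowest genes of each pathway list in a comparison and the 2 genes closest to each member were to be named, and marker genes, Egln3 and Adm were named beyond this rule after their values were seen. Promoters were matched by symbol for 4 of 10 members; Lox, Loxl1, Loxl2, Loxl3, Plod2 and Fkbp10 had none.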

Additional observations from a re-analysis of the deposited data

Results flagged for a closer look

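For 8 members the change from cultured cells to allografts differed between the lines by a test of the difference itself, the interaction of line and growth setting over 12 samples. Of all 18440 genes tested, 10.8% were called higher and 6.78% lower. On the log2 scale the change was higher in 57SCLC than in 46LCNEC by 12.20 for Lox, 10.21 for Loxl2, 10.20 for Loxl3, 7.98 for Serpinh1, 7.38 for Plod2, 4.33 for Loxl1, 3.98 for Loxl4 and 2.94 for Fkbp10. The 57SCLC flasks held between 6 and 43 reads in all of Lox, Loxl2, Loxl3, Loxl4, Plod2 and Serpinh1, so the size of these differences depends on the pseudocount. All of these but Loxl4 stayed under 10 normalized counts in every flask, so their 57SCLC change could not have been a clear fall. Fibroblast markers moved too, 3 of 8 with a higher and 2 with a lower change in 57SCLC, and their part was not tested. Groups of 3 samples were not tested for samples far from the others.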

How the results depend on the processing

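Among the member results, 570 of those with a sample left out and 543 of those under other alternatives kept their direction and side of the thresholds. With a sample left out, 18 others lost their call, 4 gained one and 8 turned sign. Under other alternatives 2 lost their call, 1 gained one and 4 turned sign. The number of members lower in 57SCLC_allo against Lung was 1 with scaling by total reads and ranged from 1 to 2 with a sample left out. Members higher in 57SCLC_allo against 46LCNEC_allo ranged from 0 to 1, members higher in 46LCNEC_allo against 46LCNEC_cell from 1 to 3, and all genes lower in the latter from 783 to 1558, against 1383 with all samples. The cause was not tested, except that fewer samples were used.

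Signs turned only for members that did not pass. Loxl2 in 46LCNEC_allo against Lung stood at 0.38 with edgeR, 0.35 with DESeq2 and between -0.85 and 0.63 with a sample left out, and Serpinh1 between -0.16 and 1.06. Plod1 in 57SCLC_allo against Lung stood at 0.044 with scaling by total reads and between -0.37 and 0.014 with a sample left out, and Plod3 between -0.059 and 0.22. Loxl1 in 46LCNEC_cell against Lung ranged from -0.10 to 0.12. In 46LCNEC_allo against 46LCNEC_cell Plod3 stood at -0.0025 with scaling by total reads and between -0.073 and 0.19, and Fkbp10 between -0.035 and 0.34.

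Calls also changed for Plod2 in 46LCNEC_allo against Lung (1.06 with DESeq2 and 1.24 without tumor 312, both called), for Plod1 there (lost without CT3 or CT5), for Plod3 in 57SCLC_allo against 46LCNEC_allo (-0.89 with scaling by total reads, and lost without tumor 316 or 317), for Loxl4 in 46LCNEC_allo against 46LCNEC_cell (lost without any single dish), for Loxl2 there (-2.41 without tumor 321, called) and for Plod1 in the interaction (1.35 without tumor 319, called). With the replicate block in 57SCLC_cell against 46LCNEC_cell, 10 members were lower and 0 higher, and 3756 genes were lower and 4041 higher; the block changed no member's call. Scaling by total reads moved the median of all genes by 0.26 in 57SCLC_allo against 46LCNEC_allo, by 0.21 in 57SCLC_allo against Lung and by 0.23 in 57SCLC_cell against either group. With few reads in 57SCLC_cell, the depth limits the size of the differences of 6 members. For Lox, Loxl2, Loxl3, Plod2 and Serpinh1 the filter fixed the direction of the pairwise calls in advance, so depth could not change it.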
